A study of Mus musculus with 46 samples.

Results

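The transcripts of the oxidative phosphorylation machinery were followed through MC-38 cells and tumors of mice with or without PD-1. Members were the protein-coding genes whose mouse symbols start with Ndufa, Ndufb, Ndufc, Ndufs, Ndufv, Uqcr, Cox4 to Cox8 or Atp5, the genes Sdha, Sdhb, Sdhc and Sdhd, and the mitochondrially encoded mt-Nd, mt-Co, mt-Cytb and mt-Atp genes. This gave 106 of 48795 genes, of which 93 are encoded in the nucleus and 13 in the mitochondrial genome. The nuclear members were 38 subunits of complex I, 8 complex I assembly factors (Ndufaf), 4 subunits of complex II, 8 of complex III, 18 of complex IV and 17 genes of the ATP synthase. RNA-seq of bulk material gave an FPKM value (fragments mapped to the gene, scaled to its transcript length and to all mapped fragments) for each gene in 46 samples.

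The samples formed 8 groups. Cultures of the mouse line MC-38 (n = 3) were compared with subcutaneous flank tumors of the same line. Baseline tumors (n = 3) came from WT mice before any antibody. WT mice with tumors then received isotype control or the PD-1 antibody muDX400 at 5 mg/kg. Tumors were taken on day 4 after 1 dose (n = 5 and n = 5) or on day 8 after 2 doses (n = 5 and n = 5). By the schedule in the paper these days count from the first dose, which was given some days after implant. The paper counts the tamoxifen study in days after implant, so the day scales differ. PD-1cKO mice carry Pdcd1 with exons flanked by loxP sites and an inducible Cre from the ROSA26 locus, which is active in most tissues, so that the deletion was not confined to T cells. These mice and WT littermates (n = 10 and n = 10) were all given tamoxifen at 40 mg/kg. The labels place their tumors at day 28, as do a table and a figure legend of the paper, whereas its methods give an earlier day. Host mice were young adult females. All tumors grew from 1 cell line, and only host cells carried the deletion.

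Oxidative phosphorylation turns the energy of nutrients into ATP at the inner mitochondrial membrane. Complexes I and II pass electrons from NADH and succinate to ubiquinone, complex III passes them to cytochrome c and complex IV to oxygen, and the proton gradient built up on the way drives the ATP synthase. Most subunits are encoded in the nucleus, but a core set of complexes I, III, IV and the ATP synthase is encoded in mitochondrial DNA, transcribed there as long polycistronic RNAs from both strands, and has to be matched by the nuclear subunits. Several nuclear subunits have a second gene of restricted expression, such as Ndufa4l2 and Cox4i2, which respond to low oxygen, and Cox6a2, Cox7a1 and Cox8b, the forms of heart and skeletal muscle.

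The depth of each library was estimated relative to the first culture from the smallest step between low values, and it ranged from 0.295 to 0.467 in the antibody study except for 1 tumor, from 0.364 to 0.374 in baseline tumors, and from 0.747 to 2 in the tamoxifen study. These are estimates, and precision was otherwise taken from the spread between replicates. The cultures showed no leukocyte marker Ptprc above 0.0078 FPKM, and their summed epithelial markers (Krt8, Krt18, Krt19, Epcam and Cdh1) reached only 0.616 to 0.742 FPKM, although the line is described as a colon carcinoma. The targeted gene Pdcd1 had a lowest, median and highest FPKM of 5.05, 8.29 and 19.95 in tumors labelled PD-1cKO and of 1.71, 3.01 and 7.02 in WT tumors, and since this value also counts exons outside the deleted ones it does not check the label. Isotype control replicate 1 after 1 dose stood apart, and summaries that include it are given with and without it. Fits of all groups together, used as an alternative, were run only with it. Short noncoding RNAs took a median of 45.3% (WT) and 54.0% (labelled PD-1cKO) of the FPKM in the tamoxifen study and at most 0.0817% in the other tumors and cultures, so levels are compared within a study. Within the tamoxifen study that share still ran from 30.2% to 54.6% (WT) and from 31.1% to 66.5% (labelled PD-1cKO). The summed FPKM of nuclear protein-coding genes was 324638 to 393931 and 272911 to 354686. FPKM values and main log2 fold changes of that study are not corrected for this. The fit with nuclear protein-coding scaling is given beside the main one. In bulk tissue, fewer cells of a type and less RNA per cell cannot be told apart. Replicates are numbered tumors or cultures, and the p-values measure the spread between these samples only.

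The nuclear members together took 2.47%, 2.49% and 2.51% of the FPKM of nuclear protein-coding genes in the cultures. Baseline tumors gave 2.16% to 2.19%, below every culture. After 1 dose the isotype control tumors other than replicate 1 gave 1.61% to 1.68% and the PD-1 Ab-treated tumors 1.49% to 1.67%, and these ranges overlapped. After 2 doses the isotype control tumors gave 1.98%, 1.82%, 2.41%, 1.81% and 2.10%, and the PD-1 Ab-treated tumors 1.68%, 1.58%, 1.61%, 1.84% and 1.69%. Here 4 of the 5 treated tumors were below the lowest control and replicate 4 overlapped with it. WT tumors had a lowest, median and highest share of 1.62%, 1.75% and 2.10%, and tumors labelled PD-1cKO of 1.33%, 1.62% and 1.95%. The last pair of groups overlapped widely.

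The 13 mitochondrial mRNAs took 5.51% to 6.08% of the total FPKM in the cultures and 4.54%, 4.87% and 7.61% in the baseline tumors. They took 2.86% to 4.40% in the tumors of the antibody study, again without isotype control replicate 1, and 0.140% to 0.895% in the tamoxifen study. The second range is set beside a total that is largely short noncoding RNA. Relative to nuclear protein-coding FPKM alone, the 13 mRNAs still amounted to a median of 0.806 per 100 in WT and 0.651 per 100 in tumors labelled PD-1cKO, against 3.90 per 100 in isotype control tumors after 2 doses. The studies also carry different runs of sample identifiers, so study, run and mouse model cannot be told apart in this difference.

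**Figure D1:**
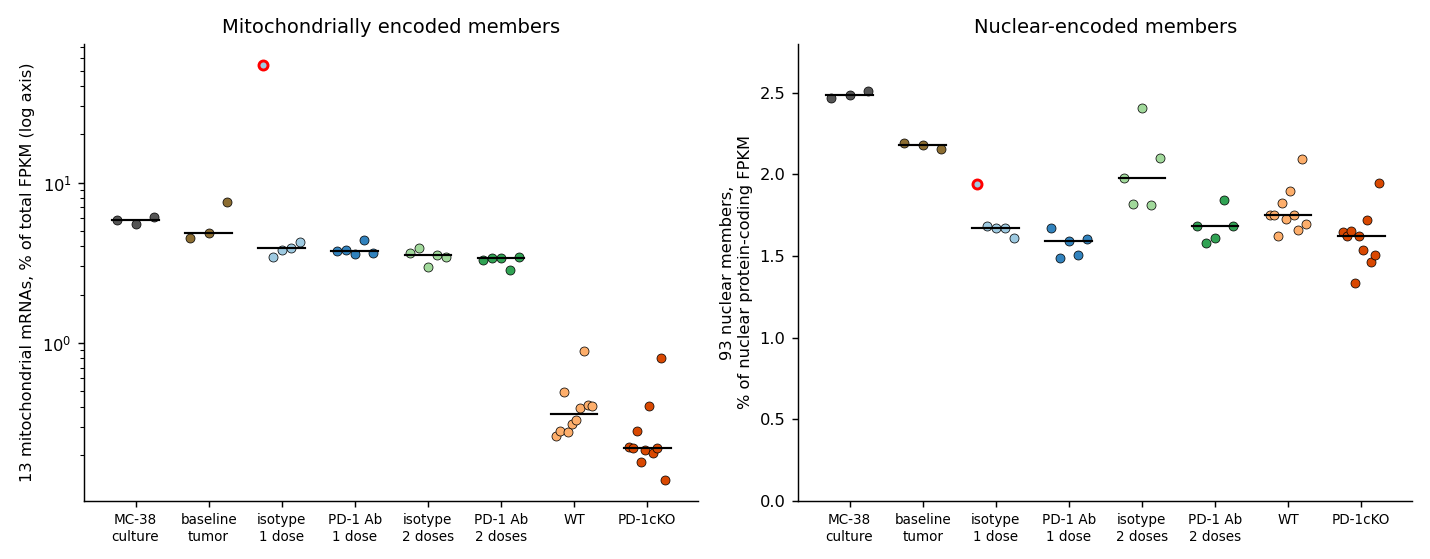
Share of the 13 mitochondrial mRNAs in the total FPKM (left, % on a log axis) and of the 93 nuclear members in the FPKM of nuclear protein-coding genes (right, %), with 1 point per sample, bars at group medians and isotype control replicate 1 after 1 dose ringed in red. That tumor stands at 54.3% on the left, where the next highest sample is 7.61%, and the nuclear share is highest in the cultures.

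In isotype control replicate 1 after 1 dose, mitochondrial mRNAs made up 54.3% of the FPKM, against 3.43%, 3.78%, 3.91% and 4.27% in replicates 2 to 5. mt-Co1, the catalytic subunit of complex IV, read 143028 FPKM in replicate 1 and 4980 to 6190 in the others. The excess was not even along the mitochondrial genome. Of the 12 mRNAs read from the same strand, 11 stood 17.4-fold (mt-Nd2) to 36.6-fold (mt-Co2) over the mean of the other 4 tumors in FPKM, whereas mt-Nd5 stood 4.05-fold over it. mt-Nd6, the only mRNA of the opposite strand, stood 1.49-fold over it, at 505 FPKM against 307 to 374. The genes mt-Nd5 (chrM:11742-13565) and mt-Nd6 (chrM:13552-14070) overlap by 14 bases in GRCm38.

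The nuclear members of that tumor were not low as a share of nuclear protein-coding FPKM, at 1.94% against 1.61% to 1.68%. On that scale members ranged, among those with at least 0.5 FPKM in the other tumors, from Ndufaf8, at 0.318 of their mean, to Atp5mpl, at 3 times that mean. Below that level Cox7a1 and Cox8b, at 0.999 and 0.909 FPKM, were at 9.25 and 6.19 times the scaled mean of the others, and Cox6b2 and Cox7b2 were listed at 0. Cox8a, the common form of a small complex IV subunit, read 58.6 FPKM against 199 to 374, and its scaled level was 0.449 of the others. The estimated depth of the library was 1.10 relative to the first culture, against 0.344 to 0.423 in the other 4 tumors, and ribosomal RNA of the mitochondrion was 0.287% of FPKM against 0.0237% to 0.0337%.

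**Figure D2:**
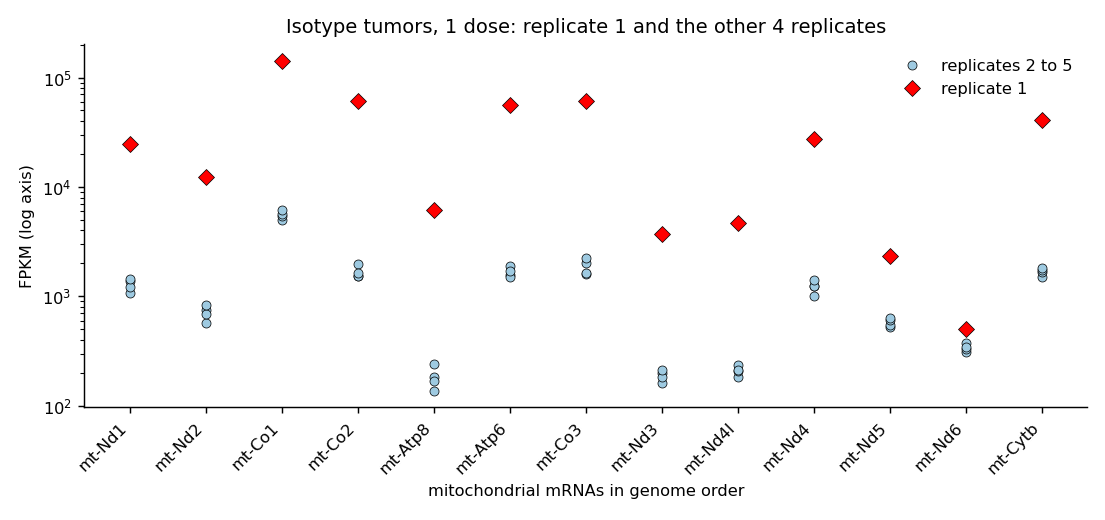
FPKM (log axis) of the 13 mitochondrial mRNAs, in genome order, in isotype control tumors after 1 dose, with replicate 1 as red diamonds and the other 4 replicates as blue points. Replicate 1 is far above the others at 11 mRNAs, less so at mt-Nd5 (2357 against 527 to 636) and least at mt-Nd6.

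Sequence limits what the mitochondrial values mean. All 50-base stretches of mt-Co2 and 99.9%, 99.5%, 98.8% and 98.0% of those of mt-Co3, mt-Atp6, mt-Nd4l and mt-Nd3 also occur in another annotated gene, and 62.2% of those of mt-Nd4 and 51.1% of those of mt-Co1 do. The copies named here lie on chromosome 1 and had FPKM of their own. In isotype control tumors after 2 doses the copy of mt-Co2 (Gm28661) had a median of 2673 FPKM, against 1939 for the gene itself, and the copy of mt-Atp6 (Gm10925) 2182 against 1600. These genes are therefore uncertain. mt-Nd1, mt-Nd6 and mt-Cytb, which share no such stretch, are the firmer ones, although diverged or unannotated copies were not examined. mt-Atp8 shares none either, but it lies between mt-Co2 and mt-Atp6, whose copies are on chromosome 1. Whether an unannotated copy of mt-Atp8 lies there was not examined, so it is counted with the uncertain genes. mt-Atp8 and mt-Atp6 overlap by 43 bases and mt-Nd4l and mt-Nd4 by 7. Of the nuclear members, 48 of 93 share no 50-base stretch with another gene and 13 share more than 10%.

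Tumors of the isotype control after 2 doses were compared with cultured cells to see how the machinery differed between the cell line and the tissue it forms. Cultures, baseline tumors and these tumors each carry a run of sample identifiers of their own, so run and tissue cannot be told apart here. The limma test on log2(FPKM + 0.1) called 5 of 89 nuclear members higher and 12 lower at a Benjamini-Hochberg adjusted p under 0.01, where 20.2% and 16.8% of all 15199 genes tested were called. The higher members were all subunits with restricted expression or variants of a common one. Ndufa4l2, a paralog of the complex IV-associated subunit Ndufa4 that is induced in hypoxia, read 0.376, 0.343 and 0.352 FPKM in culture and 55.1, 59.2, 108, 59.97 and 81.4 in the isotype control tumors. No tumor came near a culture, and the log2 fold change was 7.27 (SE 0.21, adjusted p 7.6e-09). Ndufa4 itself moved the other way, from 260, 266 and 283 FPKM in culture to 131, 116, 220, 110 and 154 (log2 fold change -0.93, SE 0.21, adjusted p 0.00458).

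Cox4i2, the alternative form of the regulatory complex IV subunit Cox4i1, was listed at 0 in all 3 cultures and read 2.42, 1.77, 4.72, 4.39 and 2.76 FPKM in the isotype control tumors (adjusted p 1.96e-06). Cox4i1 read 286, 297 and 279 FPKM in culture and 298, 232, 479, 256 and 339 in tumors, and the groups overlapped (log2 fold change 0.11, adjusted p 0.68). Cox6a2, a muscle form, rose from 0.691, 0.623 and 0.828 FPKM to 4.303, 1.64, 9.07, 3.67 and 4.598 (log2 fold change 2.36, SE 0.44, adjusted p 0.00175). Cox7a1, another muscle form, rose by 1.48 on the log2 scale but stayed under 1 FPKM in every one of these samples (adjusted p 0.00249). The fifth was Atp5g2, a gene for the c ring of the ATP synthase, 0.77 higher on the log2 scale (adjusted p 0.0046), of whose 50-base stretches 38.3% occur in another gene. Skeletal muscle markers summed to 3.30 to 4.12 FPKM in these tumors and 1.96 to 2.26 in culture, and endothelial and pericyte markers to 20.4 to 29.7 FPKM against 0.443 to 0.636. Their part in the higher members was not tested.

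Among the 12 lower members the 3 lowest were small accessory subunits. Ndufc1 of complex I fell from 86.2, 88.6 and 88.6 FPKM to 21.9, 20.9, 32.7, 16.9 and 25.9, with a log2 fold change of -1.92 (SE 0.18, adjusted p 2.34e-05). Atp5k, a dimerization subunit of the ATP synthase, fell from 161, 165 and 158 FPKM to 46.6, 43.9, 82.8, 39.2 and 55.4, with a log2 fold change of -1.64 (SE 0.21, adjusted p 0.000194). Every tumor was below every culture for both. Atp5j2, Uqcrh and Cox7b fell by 0.98, 0.96 and 0.96 on the log2 scale, and Ndufs1, the large iron-sulfur subunit of complex I, fell by 0.67 (adjusted p 0.00015). The other lower members were Ndufa5, Uqcr11, Atp5mpl, Atp5j and Ndufaf4. Groups did not overlap for 6 higher and 16 lower of the 89 nuclear members, where 26.3% and 33% of all genes were so. Without isotype control replicate 3, the tumor with the highest nuclear share, the count of lower nuclear members was 34 in place of 12. With nuclear protein-coding scaling it was 21. The share of all genes called lower in these alternative fits is not given, so their counts are not set against all genes. In the fit of all samples without scaling, only Ndufc1 and Atp5k were lower by 2-fold or more, where 7.09% of all genes were.

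The mitochondrial mRNAs were lower in the isotype control tumors than in culture. All 13 had groups that did not overlap, where 33% of all genes were lower in that way, and 10 of 13 were called lower. mt-Nd1, a core subunit of complex I with no 50-base stretch in another annotated gene, read 2724, 2597 and 2786 FPKM in culture and 1347, 1398, 1363, 1256 and 1388 in tumors (log2 fold change -1.001, SE 0.10, adjusted p 3.99e-05). mt-Cytb, the core of complex III, gave -0.87 (SE 0.11, adjusted p 0.000203) and mt-Nd5 gave -1.005 (adjusted p 0.00272). mt-Atp8, a small subunit of the ATP synthase (chrM:7766-7969), was far outside this range, at 2472, 2491 and 2961 FPKM in culture and 238, 283, 117, 242 and 194 in tumors (log2 fold change -3.68, SE 0.26, adjusted p 2.83e-06). It is also the shortest of the 13, with 204 bases, and lies between mt-Co2 and mt-Atp6, whose sequence is almost wholly shared with other genes. mt-Co1 read 6642, 6482 and 6809 FPKM against 5682, 5605, 5002, 5366 and 5449, with a log2 fold change of -0.29 that did not pass (adjusted p 0.0958). mt-Nd4 and mt-Nd6 gave -0.49 and -0.65 (adjusted p 0.0198 and 0.0161). With the nuclear copies added to the genes they match, 7 of 13 were called lower, and in a fit of all groups 1 of 13 was. The fit of all groups includes isotype control replicate 1 after 1 dose and was not run without that tumor.

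Baseline tumors were compared with the same cultures. None of the 13 mitochondrial mRNAs was called (2 of 13 had an unadjusted p under 0.05), with log2 fold changes from -0.66 (mt-Nd3) to 0.23 (mt-Co1). mt-Atp8 read 1925, 1989 and 3199 FPKM there, overlapping with culture. Baseline replicate 3 was the highest for this gene, and without it 7 of 13 were called lower. Of 90 nuclear members 8 were called higher and 22 lower, where 20.8% and 18.3% of 15217 genes were called, and groups did not overlap for 13 higher and 50 lower of the 90 (31.3% and 33.7% of all genes). Ndufa4l2 was already at 25.0, 24.9 and 47.8 FPKM (log2 fold change 6.09, SE 0.25, adjusted p 1.48e-06), and Cox4i2 at 1.47, 1.51 and 0.548 FPKM. Cox6a2 read 4.42, 8.23 and 4.68 FPKM, above the cultures, beside skeletal muscle markers that summed to 4.43 to 133.3 FPKM (log2 fold change 2.802, adjusted p 8.1e-05). Cox5a of complex IV rose by 0.41 and the complex I genes Ndufs3, Ndufs4, Ndufb9 and Ndufs6 by 0.20 to 0.30 on the log2 scale. Ndufa4, with 178, 167 and 168 FPKM, Uqcrh and Uqcr11 had the lowest log2 fold changes, at -0.66, -0.73 and -0.62. With a fold limit of 1.5, those 3 and Ndufa4l2, Cox4i2 and Cox6a2 were the only nuclear members called (15.7% of all genes higher, 9.34% lower). With a limit of 2 only the 3 higher ones were left (12.1% of all genes higher, 3.75% lower).

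**Figure D3:**
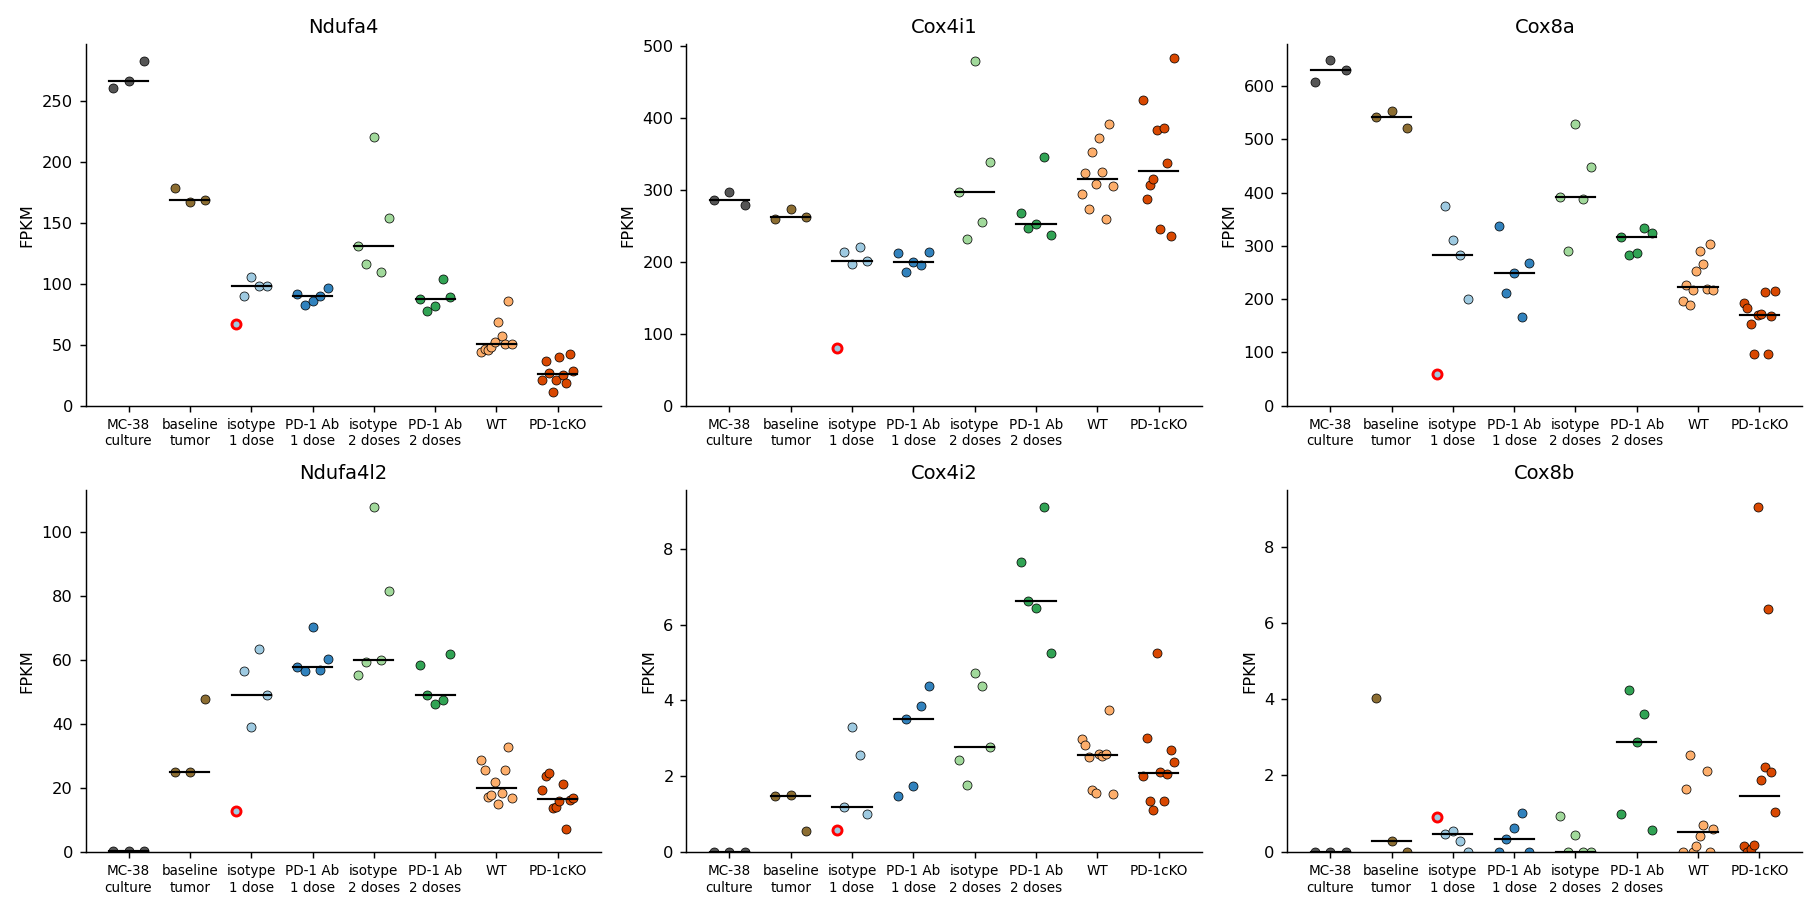
FPKM per sample (linear axes from 0) of 3 common subunits (top, Ndufa4, Cox4i1 and Cox8a) and their alternative forms (bottom, Ndufa4l2, Cox4i2 and Cox8b), with bars at group medians and isotype control replicate 1 after 1 dose ringed in red. Ndufa4l2 and Cox4i2 are near 0 in culture and above it in tumors. The median of Cox8b is higher in PD-1 Ab-treated tumors after 2 doses than in their controls. Its highest point among tumors labelled PD-1cKO is above both of these groups.

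In the control tumors the machinery was compared between 1 and 2 doses of isotype control, that is between day 4 and day 8. No member was called, as was no gene of 14445 (0% in either direction; 996 genes had an unadjusted p under 0.05). Nuclear members nevertheless stood on the upper side. Of 89 tested, 88 had a log2 fold change above 0, with a median of 0.63 against 0.29 for all genes. Without replicate 1 of the 1-dose group 87 of 89 were above 0, with a median of 0.46 against 0.00 for all genes, and the lowest adjusted p was 0.0675. With nuclear protein-coding scaling as well, 85 of 89 were above 0, with a median of 0.32 against -0.15. Ndufb2 of complex I had the highest value, with 8.35, 28.3, 31.2, 25.7 and 20.1 FPKM after 1 dose and 48.9, 43.7, 64.6, 45.04 and 57.9 after 2 doses. The groups of Ndufb2 did not overlap, and its log2 fold change was 1.31 (SE 0.33, adjusted p 0.60) and 0.98 without replicate 1. The next highest, Ndufaf8 (1.10) and the lowly expressed Cox7a1 (1.09), gave 0.57 and 1.47 without it, and the lowest were Ndufaf4 (-0.01), Ndufs1 (0.06) and Uqcrc2 (0.11). Groups did not overlap for 34 of 89 nuclear members, where 4.23% of all genes were higher in that way, and for 36 of 89 without replicate 1 (4.5% of all genes). On the lower side there was none in either case, with 0.132% and 2.21% of all genes.

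All 78 genes of the mitochondrial ribosome were above 0 in the same comparison as well, with a median of 0.56 and none called (76 of 78 and 0.33 without replicate 1). Short genes in general stood higher on day 8. The median log2 fold change of protein-coding genes with under 1000 exonic bases was 0.67 and that of longer ones 0.28, and nuclear members gave 0.74 (n = 21) and 0.55 (n = 68). Without replicate 1 these values were 0.40, -0.01, 0.52 and 0.43. The samples of each day also carry different runs of sample identifiers, so day, dose number and run cannot be told apart. The mitochondrial mRNAs had a median log2 fold change of -0.91 in this comparison and of -0.02 without replicate 1.

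PD-1 Ab was then compared with isotype control at each dose. After 1 dose no member was called, where 0% of 14556 genes were called in either direction (895 had an unadjusted p under 0.05, among them none of the 88 nuclear members). With replicate 1 the median log2 fold change was 0.15 for nuclear members, -0.94 for the 13 mitochondrial mRNAs and 0.26 for all genes. Without it the medians were -0.04, -0.07 and -0.04, and again no member was called (0.089% of 14606 genes higher, 0.00685% lower), with an unadjusted p under 0.05 for 5 nuclear members and 2472 genes. Nuclear protein-coding scaling moved the median of all genes from 0.26 to 0.02 in this comparison, from -0.20 to -0.07 in that of the deletion and from 0.29 to -0.08 in that of the control tumors. The core subunits Ndufs1, Sdha, Uqcrc1, Cox5a and Atp5b had log2 fold changes of 0.11 to 0.29 with replicate 1 and of -0.10 to -0.02 without it. The most extreme nuclear members were Cox4i2 (0.88), Ndufa4l2 (0.64) and Ndufaf8 (0.57) on the upper side, and Ndufaf6 (-0.30), Ndufaf2 (-0.23) and Ndufc1 (-0.17) on the lower side. Without replicate 1 these 6 gave 0.59, 0.23, 0.05, -0.28, -0.30 and -0.12, and the lowest member was Atp5g2 (-0.42, adjusted p 0.286). Ndufa4l2 read 57.7, 56.5, 70.2, 56.9 and 60.3 FPKM in PD-1 Ab-treated tumors and 12.6, 56.6, 39.0, 63.4 and 49.0 in controls, in which replicate 1 was the lowest.

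After 2 doses 85 of 91 nuclear members had log2 fold changes below 0, with a median of -0.31 against -0.04 for all genes, but none of them was called lower, where 1.56% of 15062 genes were. All subunits of complexes I, II, III and the ATP synthase were below 0, with medians of -0.33, -0.17, -0.22 and -0.32. An unadjusted p under 0.05 was found for 41 of 91, and for 5977 of all genes. In 7 of 91, namely Atp5f1, Atp5g3, Atp5mpl, Atp5s, Ndufa4, Cox6c and Cox7c, every treated tumor was below every control, and 6.12% of all genes were lower in that way. Ndufs6, an accessory subunit of complex I, read 74.3, 78.6, 76.2, 62.2 and 85.7 FPKM in treated tumors and 117, 113, 202, 83.2 and 149 in controls (log2 fold change -0.76, SE 0.20, adjusted p 0.0186). Ndufa4 read 87.4, 77.5, 81.9, 104 and 89.0 FPKM against 131, 116, 220, 110 and 154 (log2 fold change -0.69, SE 0.17, adjusted p 0.0158). With nuclear protein-coding scaling Ndufa4 passed, with -0.64 and an adjusted p of 0.00584. Sdha, the flavoprotein of complex II, gave -0.49 (SE 0.12, adjusted p 0.0154) and Atp5s, a coupling factor gene of the ATP synthase, -0.61 (adjusted p 0.0205).

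A single nuclear member, Cox4i2, was called higher after 2 doses, where 6.69% of all genes were. It read 7.65, 6.64, 6.44, 9.10 and 5.25 FPKM in PD-1 Ab-treated tumors and 2.42, 1.77, 4.72, 4.39 and 2.76 in controls. Every treated tumor was above every control, as for 9.23% of all genes, and the log2 fold change was 1.17 (SE 0.26, adjusted p 0.00936). The call was lost under median-of-ratios scaling (adjusted p 0.0129) and in a fit of all groups (0.0364), among other settings. Cox8b, the muscle and brown fat form of Cox8a, read 0.997, 4.23, 2.87, 3.62 and 0.558 FPKM against 0.929, 0, 0.434, 0 and 0, with a log2 fold change of 3.19 that missed the threshold (adjusted p 0.0138). Only replicate 5 of the treated tumors was within the range of the controls. Cox6b2 gave 1.31 (adjusted p 0.054).

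Markers of other tissue moved in these same tumors. Adipose markers summed to 23.5 to 302.4 FPKM in treated tumors and 9.62 to 65.1 in controls, with Adipoq, a fat cell hormone, at 29.2, 48.5, 43.9, 55.7 and 2.02 FPKM against 6.86, 1.79, 7.25, 0.541 and 5.03. Endothelial and pericyte markers summed to 28.5 to 106.2 FPKM against 20.4 to 29.7, with the pericyte gene Rgs5 at 17.1, 33.2, 22.0, 12.3 and 6.06 against 6.57, 8.24, 4.59, 6.72 and 5.21. Treated replicate 5 was the lowest for Cox4i2, Cox8b, Adipoq and Rgs5 alike, but the order of the other treated tumors differed. In the tumor where Cox4i2 was highest, Adipoq was also highest (55.7 FPKM) but Rgs5 read only 12.3 FPKM. Skeletal muscle markers summed to 4.06 to 81.0 FPKM against 3.30 to 4.12, with 7 of 8 tested above 0 and 1 called higher. The brown fat marker Ucp1 was at or under 0.439 FPKM in all 10 tumors. All 7 T cell markers and 6 of 7 macrophage markers were called higher, and the 9 cycling markers were all below 0 with none called. Their part in the values of the members was not tested.

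Of the 13 mitochondrial mRNAs none was called after 2 doses (3 had an unadjusted p under 0.05), and the median log2 fold change was -0.15. mt-Nd6 had the lowest value, with 347, 355, 328, 232 and 286 FPKM in treated tumors and 460, 384, 607, 343 and 551 in controls (log2 fold change -0.58, SE 0.17, adjusted p 0.0315). The groups overlapped through control replicate 4. mt-Co1 gave -0.09 and mt-Nd5 0.02. The difference between the nuclear and mitochondrial medians was not tested.

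**Figure D4:**
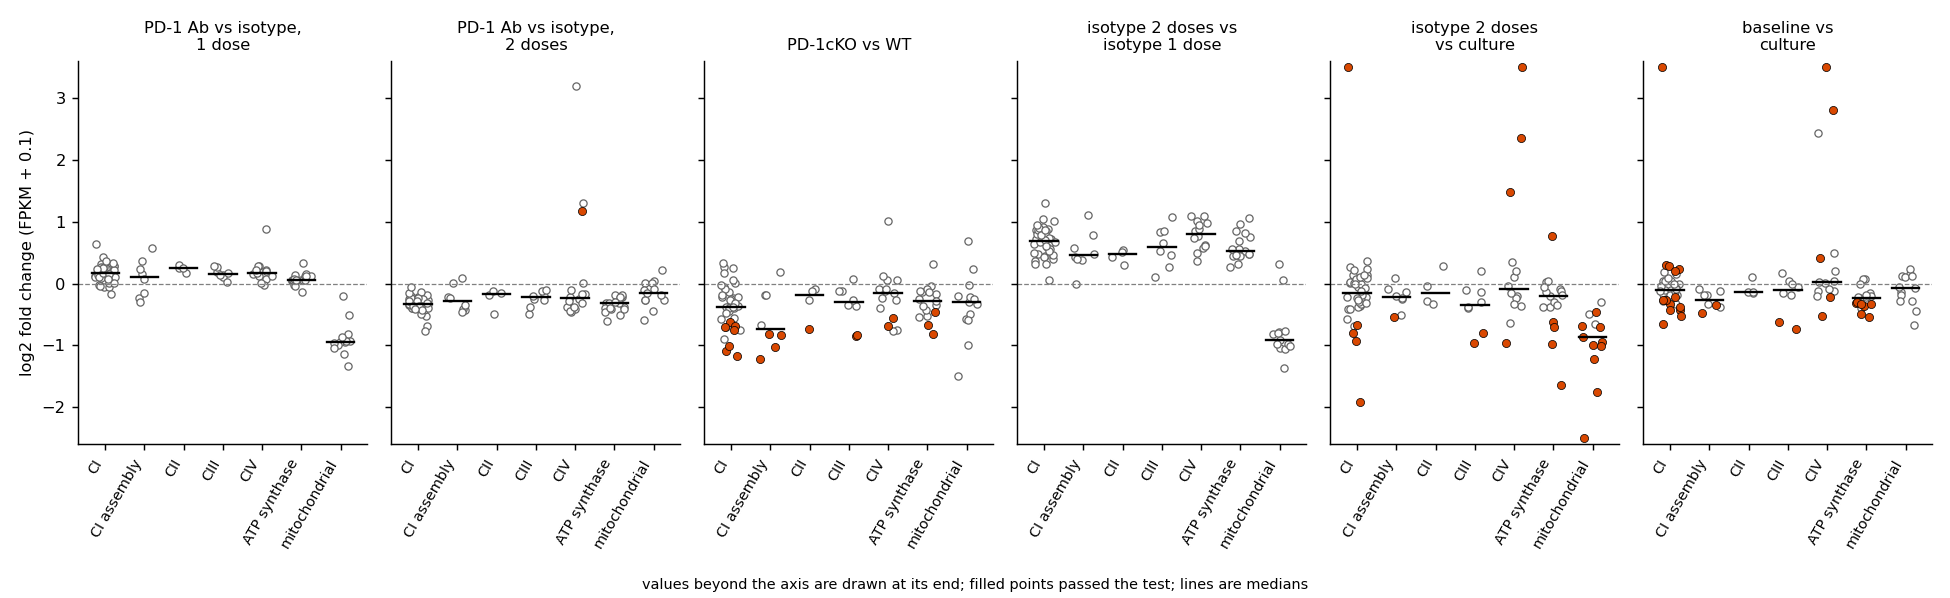
Log2 fold change of each member on the scale of log2(FPKM + 0.1) in the 6 comparisons of groups, by complex, with mitochondrial mRNAs in the last column, filled points for members that passed the limma test and lines at medians. Medians of the nuclear complexes lie below 0 after 2 doses of PD-1 Ab, with 1 member passing as higher (6.69% of all genes). They also lie below 0 in tumors labelled PD-1cKO, with 19 passing as lower (12.6% of all genes) and 0 with the run of sample identifiers as a covariate. Between isotype control tumors of 2 doses and 1 dose they lie above 0 with none passing. Isotype control replicate 1 after 1 dose is included.

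The deletion was tested by comparing tumors labelled PD-1cKO with WT tumors, all from tamoxifen-treated mice. Here 19 of 90 nuclear members were called lower and none higher, where 12.6% and 8.78% of 15075 genes were called. An unadjusted p under 0.05 was found for 45 of 90 members and for 7968 of the 15075 genes. Of the members 77 of 90 were below 0, with a median of -0.30 against -0.20 for all genes. With nuclear protein-coding scaling 17 were lower and 2 higher, Ndufc2 (0.46, adjusted p 0.00487) and Atp5l (0.46, adjusted p 0.0093), and the medians were -0.17 and -0.07. Lower calls came from every complex, with 7 of 38 complex I subunits, 4 of 8 complex I assembly factors, 1 of 4 members of complex II, 2 of 8 of complex III, 2 of 15 of complex IV and 3 of 17 of the ATP synthase. The median was lowest in the assembly factors, at -0.74, and was -0.37 in the subunits of complex I and -0.15 in complex IV.

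Of the complex I subunits 6 of 38 lay above 0, and the 7 called lower included Ndufb3 and Ndufs4. Ndufb3, an accessory subunit of the membrane arm (Ensembl ENSMUSG00000026032), had a lowest, median and highest FPKM of 4.15, 8.32 and 16.0 in tumors labelled PD-1cKO and of 14.8, 19.9 and 26.2 in those labelled WT (log2 fold change -1.17, SE 0.20, adjusted p 0.000762). Only the top of the first range reached into the second. Ndufs4, needed for late assembly of complex I, had 6.92, 11.6 and 26.4 FPKM against 20.8, 24.6 and 39.5 (log2 fold change -1.01, SE 0.23, adjusted p 0.00279). The large subunit Ndufs1 fell by 0.70 and the electron input subunit Ndufv2 by 0.75 on the log2 scale (adjusted p 0.00291 and 0.0017), while its partner Ndufv1 gave -0.38 (adjusted p 0.16). Ndufb5 and Ndufb10 fell by 0.69 and 0.62.

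Ndufa4, counted by its name with complex I although the protein sits in complex IV, did not overlap between the groups. It had 11.3, 25.9 and 42.3 FPKM in tumors labelled PD-1cKO and 44.2, 50.4 and 85.9 in those labelled WT (log2 fold change -1.09, SE 0.20, adjusted p 0.000848). The only other member whose groups did not overlap was the assembly factor Ndufaf7, a methyltransferase acting on complex I, with 1.87, 4.82 and 6.10 FPKM against 6.10, 7.11 and 9.44, where the top of the first range was just below the bottom of the second (log2 fold change -0.84, SE 0.19). These are 2 of 90, where 0.305% of all genes were lower in that way and 0.643% higher. The assembly factors Ndufaf2, Ndufaf4 and Ndufaf1 fell by 1.21, 1.03 and 0.81 on the log2 scale (adjusted p 0.00737, 0.00222 and 0.00157). Ndufb3, Ndufs4, Ndufa4, Ndufaf2 and Ndufaf4 were the 5 members lower by 2-fold or more, where 3.87% of all genes were. Ndufa4l2 had 7.16, 16.5 and 24.6 FPKM against 14.9, 20.004 and 32.7 and did not pass (log2 fold change -0.37, adjusted p 0.12).

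In the rest of the chain, Sdha of complex II had 27.2, 41.2 and 66.9 FPKM in tumors labelled PD-1cKO and 49.9, 70.3 and 115 in those labelled WT (log2 fold change -0.73, SE 0.17, adjusted p 0.00317), whereas its partner Sdhb gave -0.09. Uqcrb of complex III, the member with the lowest adjusted p, had 28.9, 46.0 and 60.7 FPKM against 56.6, 79.1 and 100.5 (log2 fold change -0.85, SE 0.14, adjusted p 0.000707). In its sequence 25.4% of 50-base stretches occur in another gene. The core protein Uqcrc2 fell by 0.83 while Uqcrc1 gave -0.11. In complex IV, Cox5b and Cox8a fell by 0.68 and 0.55, and Cox4i1 and Cox4i2 gave 0.06 and -0.15. The highest value of all nuclear members was that of Cox8b, with 0, 1.46 and 9.03 FPKM against 0, 0.513 and 2.53 (log2 fold change 1.01, SE 0.85, adjusted p 0.329). In the ATP synthase, Atp5f1, Atp5o and Atp5h fell by 0.82, 0.67 and 0.46, and the core subunits Atp5a1 and Atp5b gave -0.52 (adjusted p 0.021) and -0.43 (adjusted p 0.065). Subunits of the same complex thus differed in their values.

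Promoters of members are shown because transcription factors known to serve these genes as a group, NRF1, GABPA and YY1, bind short motifs there. RefSeq promoters of GRCm38.p6, from 250 bases before to 50 bases after the start of each gene, were at hand for 74 of 93 nuclear members, some with more than 1 start, 79 promoters in all. On both strands the NRF1 motif (GCGCA, any base, then GCGC) was in 20 of 79, or 25.3%, against 4.603% of 32851 promoters of all genes, the YY1 motif (AANATGGCG) in 11, or 13.9%, against 2.38%, and the GABPA motif (CCGGAAGT) in 5, or 6.33%, against 3.89%. Counted per gene, the shares were 25.7%, 14.9% and 6.76% of 74 members, against 7.47%, 3.83% and 5.95% of 16430 protein-coding genes. No motif overlapped another in the promoters printed. Of the 19 members called lower in tumors labelled PD-1cKO, 15 had a promoter in the table, and 4 of these held the NRF1 motif, 2 the GABPA motif and 1 the YY1 motif. The promoters printed, 5' to 3' on the minus strand that each gene is read from, have the matches in capitals. Sdha (chr13:74350191-74350490) has 3 NRF1 matches, Atp5h (chr11:115419870-115420169) an NRF1 and a GABPA match, Ndufs4 (chr13:114388045-114388344) a YY1 match, Ndufs6 (chr13:73328433-73328732), which was lowest after 2 antibody doses, an NRF1 and a YY1 match, and Ndufa4 (chr6:11907401-11907700), among the 3 lowest both after 2 antibody doses and in the deletion, none.
Sdha: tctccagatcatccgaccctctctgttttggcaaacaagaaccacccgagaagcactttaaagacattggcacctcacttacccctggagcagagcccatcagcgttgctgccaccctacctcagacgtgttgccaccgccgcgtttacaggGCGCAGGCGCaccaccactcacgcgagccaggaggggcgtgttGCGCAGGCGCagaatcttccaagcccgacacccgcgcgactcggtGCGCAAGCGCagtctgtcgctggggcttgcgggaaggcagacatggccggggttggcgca
Atp5h: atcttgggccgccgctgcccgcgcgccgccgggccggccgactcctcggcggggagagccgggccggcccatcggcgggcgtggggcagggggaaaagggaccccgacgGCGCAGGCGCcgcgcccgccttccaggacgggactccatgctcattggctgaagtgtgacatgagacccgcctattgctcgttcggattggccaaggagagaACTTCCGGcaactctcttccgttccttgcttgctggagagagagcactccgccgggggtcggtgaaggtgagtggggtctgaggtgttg
Ndufs4: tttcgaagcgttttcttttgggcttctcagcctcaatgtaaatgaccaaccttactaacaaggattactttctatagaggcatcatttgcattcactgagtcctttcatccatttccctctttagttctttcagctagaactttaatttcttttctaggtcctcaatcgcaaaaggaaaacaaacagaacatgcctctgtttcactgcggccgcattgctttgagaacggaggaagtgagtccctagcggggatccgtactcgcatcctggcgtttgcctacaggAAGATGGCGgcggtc
Ndufs6: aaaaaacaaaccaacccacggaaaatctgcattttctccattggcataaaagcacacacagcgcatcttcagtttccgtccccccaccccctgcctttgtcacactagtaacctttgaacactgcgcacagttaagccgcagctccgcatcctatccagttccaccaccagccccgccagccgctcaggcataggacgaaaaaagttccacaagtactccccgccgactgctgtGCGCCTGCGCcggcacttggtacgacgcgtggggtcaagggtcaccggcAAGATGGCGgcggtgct
Ndufa4: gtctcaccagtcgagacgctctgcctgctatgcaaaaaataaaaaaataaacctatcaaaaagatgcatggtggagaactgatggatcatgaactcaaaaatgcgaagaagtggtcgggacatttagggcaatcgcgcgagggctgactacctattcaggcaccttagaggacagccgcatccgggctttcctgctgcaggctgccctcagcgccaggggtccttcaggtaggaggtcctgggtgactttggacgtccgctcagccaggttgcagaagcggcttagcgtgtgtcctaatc

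The mitochondrial mRNAs did not pass in the deletion. None of 13 was called (3 had an unadjusted p under 0.05), and their median log2 fold change was -0.30. mt-Co2 had -0.99 (SE 0.30, adjusted p 0.0124), but all of its sequence occurs in another gene. mt-Nd4l had the lowest value, -1.49, but its lowest tumor was near 0 FPKM in both groups. Of the 13, 2 lay above 0. Among them mt-Nd3 had a mean of 133 FPKM in tumors labelled PD-1cKO and 103 in those labelled WT. The other was mt-Nd6, read from the opposite strand, with 8.72, 14.2 and 33.6 FPKM in tumors labelled PD-1cKO and 6.37, 7.57 and 20.96 in those labelled WT. Its log2 fold change was 0.69 (SE 0.25, adjusted p 0.0291), and it passed under median-of-ratios scaling (adjusted p 0.00418). The levels of this study were uneven along the mitochondrial genome. In WT tumors mt-Co1 had 1003, 1212 and 2450 FPKM, while mt-Nd1 had 87.2, 105 and 318, mt-Cytb 54.5, 81.0 and 274 and mt-Nd6 6.37, 7.57 and 20.96. In isotype control tumors after 2 doses the same 4 genes were at 5002 to 5682, 1256 to 1398, 1467 to 1760 and 343 to 607 FPKM.

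**Figure D5:**
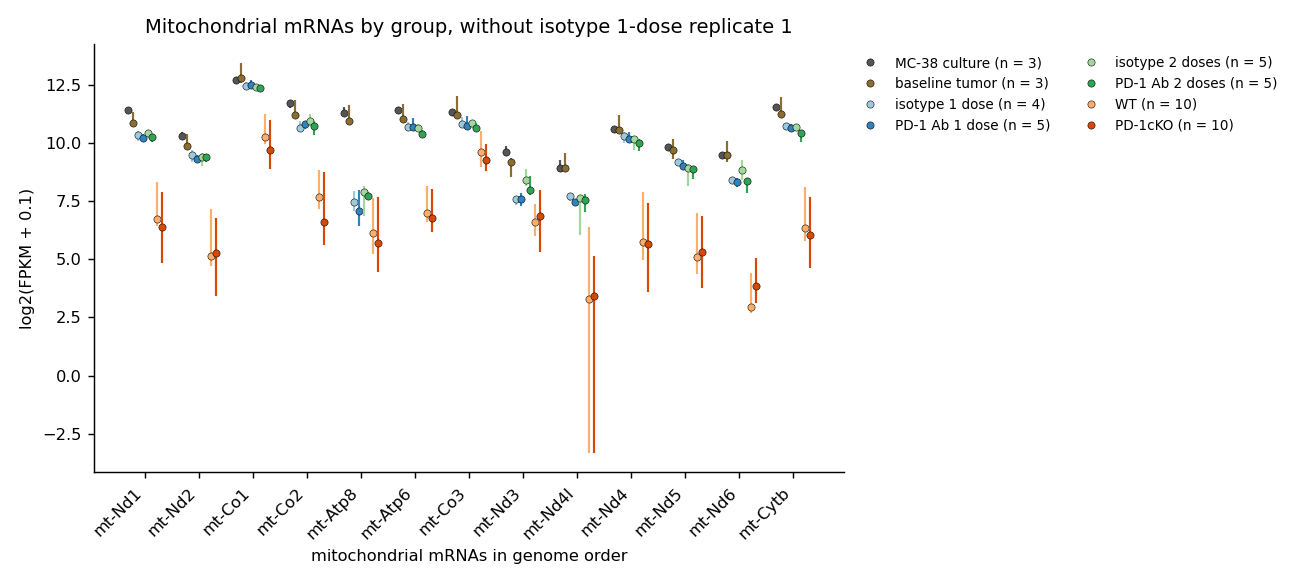
Median (points) and range (lines) of log2(FPKM + 0.1) of each mitochondrial mRNA, in genome order, in the 8 groups without isotype control replicate 1 after 1 dose. Culture and baseline tumors lie above the other tumors at mt-Atp8, and the medians of WT tumors and tumors labelled PD-1cKO lie below those of the rest at all 13 mRNAs.

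Other genes of mitochondria were counted in the same tumors, where 12.6% of all genes were called lower. Of 78 genes of the mitochondrial ribosome 23 were called lower and none lay above 0 (median -0.52), as were 6 of 14 genes of the TCA cycle, 10 of 20 genes of mitochondrial transcription, replication and mRNA stability, and cytochrome c, Cycs (log2 fold change -0.84, adjusted p 0.00408). Among them Tfam, which packages mitochondrial DNA and starts its transcription, gave -0.75 (SE 0.21, adjusted p 0.00873), and the mRNA stabilizers Lrpprc and Slirp gave -0.88 and -0.85 (adjusted p 0.00816 and 0.00216). Of 29 assembly genes of complexes II to V 2 were lower. With the run of sample identifiers as a covariate none of these was called. After 2 doses of PD-1 Ab the corresponding counts were 1 of 78, 0 of 14, 0 of 20 and 0 of 29, with 1.56% of all genes called lower.

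Cell markers moved with the deletion too. Of 9 cycling markers 6 were called lower, and their summed level had a lowest, median and highest value of 82.2, 356.8 and 515.2 FPKM against 494.5, 577.6 and 706 in WT tumors. All 7 T cell markers (27.2 to 102.2 FPKM in sum against 10.4 to 40.9), 5 of 7 macrophage markers (1341 to 4553 against 935 to 1566) and 5 of 7 neutrophil markers were called higher, as were 3 of 6 fibroblast markers. The 9 skeletal muscle markers all lay below 0 with none called, and their sums were 1.69 to 840.1 FPKM with a median of 23.2, against 3.52 to 352.9 with a median of 129 in WT tumors. Their part in the lower members was not tested.

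The deletion and the run of sample identifiers were nearly the same split. In the run with 9 WT tumors, the 1 tumor labelled PD-1cKO had 18.2 FPKM of Ndufa4 against 44.2 to 85.9, 7.40 of Ndufb3 against 14.8 to 26.2, and a nuclear share of 1.47% against 1.62% to 2.10%. That tumor also had the highest share of short noncoding RNA in the tamoxifen study, 66.5% of the FPKM. Its Ndufa4 and Ndufb3 values are not corrected for this. In the run with 1 WT tumor, Ndufa4 read 27.9 and 42.3 FPKM in tumors labelled PD-1cKO and 50.3 in the WT tumor, and the nuclear share 1.51% and 1.95% against 1.70%. The other 7 tumors labelled PD-1cKO formed a run of their own. With the run as a covariate Ndufa4 and Ndufb3 had log2 fold changes of -1.13 and -1.10 and lost their calls (adjusted p 0.0306 and 0.0338), and limma called 0 of 90 nuclear members and 0 of 15075 genes, with an unadjusted p under 0.05 for 38 of 90 and for 6533 genes.

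The difference between the responses was tested directly. Between 2 antibody doses and the deletion, no member passed, where 0.0853% of 16404 genes passed as higher and 0.0122% as lower. An unadjusted p under 0.05 was found for 8 of 91 nuclear members and for 2585 of the 16404 genes. Cox4i2 had the lowest adjusted p among nuclear members (0.107), with a difference in log2 fold change of 1.32 (SE 0.39), and Ndufc2 gave -0.61 (SE 0.20, adjusted p 0.163). The other extreme members were Cox8b (2.17) and Ndufb3 (0.83) above 0 and Ndufb4 (-0.64) and Atp5l (-0.53) below it. Between 2 doses and 1 dose no gene of 15289 passed (0% in either direction; 1182 had an unadjusted p under 0.05), and 15 of 91 nuclear members had an unadjusted p under 0.05. The median difference of the nuclear members was -0.43, against -0.27 for all genes, and -0.24 against 0.02 without isotype control replicate 1. The extreme members were Cox8b (3.596), Cox6b2 (0.63) and Cox4i2 (0.29) above 0 and Ndufa4l2 (-1.07), Ndufb4 (-0.82) and Ndufv3 (-0.77) below it, which gave 3.29, 0.81, 0.58, -0.66, -0.56 and -0.41 without that replicate.

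Members at the low end stayed outside the tests. Cox8c, a testis form, was listed at 0 in all samples, and Cox7b2 did not pass the filter of a mean of 0.5 FPKM in any comparison. Cox6b2 passed it only after 2 doses of PD-1 Ab among the comparisons of a pair of groups. Cox8b did not pass for 1 dose, for isotype control tumors against culture or for isotype control tumors of 2 doses against 1 dose, and Cox7a1 did not pass for 1 dose.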

How the data were processed

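Total RNA libraries (stranded, depleted of ribosomal RNA, paired-end) were aligned by the authors with Omicsoft OSA in Array Studio to mouse genome B38 with at most 2 mismatches. The deposited FPKM values per gene were used as they stand. Biotypes and coordinates came from GENCODE M21 (GRCm38), which matched 48435 gene identifiers. The members and gene lists were chosen with earlier results of these data known. The tests used limma 3.58.1 (R 4.3.3) with eBayes trend on log2(FPKM + 0.1) over all genes whose mean reached 0.5 FPKM in one of the groups compared, and Benjamini-Hochberg adjustment. A gene was called at an adjusted p under 0.01 with no fold limit. A fold change on this scale understates that of low genes. Alternatives changed the scaling (median-of-ratios, upper-quartile, or the sum over nuclear protein-coding genes), pseudocount, filter, trend, samples and fold limit. The script was tested on simulated data.

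Text names all mitochondrial members, the 3 highest and 3 lowest nuclear members of each comparison, alternative isoforms, core subunits and members called with a 2-fold change. Others were named after their values were seen, for being called, for groups that did not overlap or as examples of a complex. Relative depth came from the value of 1 read in low genes. Intervals for counts could not be given from FPKM. No protein sequences were used here. Because of the gene-level Pdcd1 values, tumors are called labelled PD-1cKO. Python 3.11.15, pandas 2.3.3 and matplotlib 3.10.9 were used.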

Additional observations from a re-analysis of the deposited data

Results flagged for a closer look

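Samples far from the rest of their group were looked for in 15 quantities (Dixon's ratio of the gap to the range), and 21 of 90 groups held one, where chance gives about 1 in 20 groups. Most of these are the same few tumors seen through several mitochondrial mRNAs, and isotype control replicate 1 after 1 dose was known to stand apart beforehand. The count of 21 can therefore not be set against that rate. Isotype control replicate 1 after 1 dose stood apart in the summed mitochondrial mRNAs (54.3% of FPKM, nearest other 4.27%), in the nuclear share (1.94% of nuclear protein-coding FPKM, nearest other 1.68%), in Cox4i1 (80.5 FPKM, nearest other 197), and in mt-Co1 (143028 FPKM), mt-Nd4 (27361), mt-Nd5 (2357) and mt-Atp8 (6186).

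Single tumors of the tamoxifen study stood above their groups in the same way. WT replicate 8 had 0.895% of its FPKM in mitochondrial mRNAs, where the next WT tumor had 0.491%, with mt-Co1 at 2450 FPKM, mt-Nd4 at 239, mt-Nd6 at 20.96 and mt-Atp8 at 196. PD-1cKO replicate 9 had 0.799%, where the next had 0.405%, with mt-Atp8 at 203 FPKM. PD-1cKO replicate 5 was highest for the alternative subunits Cox4i2 (5.26 FPKM, next 2.997) and Cox7a1 (4.69 FPKM, next 2.46).

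In PD-1 Ab-treated tumors, replicate 4 after 1 dose was highest in mitochondrial mRNAs (4.40%, next 3.81%) and mt-Co1 (6577 FPKM, next 5777), and replicate 3 in Ndufa4l2 (70.2 FPKM, next 60.3). After 2 doses replicate 4 was lowest in mitochondrial mRNAs (2.86%, next 3.31%) and highest in Cox4i1 (346 FPKM, next 268).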

How the results depend on the processing

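Over the alternatives, counts of members called stayed within 1.5 times the reported one in 797 of 856 cases, medians of members in 390 of 396 moved by less than the spread, and of 84 values of single members 1679 alternatives kept direction and side of the threshold, 185 lost the call, 9 gained one and 13 reversed. The cause was not tested for any of these. A count of 0 in both fits was taken as within the limit, so comparisons in which no member was called add to the 797. The spread for the medians is that between samples of a group. It includes isotype control replicate 1 after 1 dose wherever that group was compared, which widens the limit there. The tallies therefore do not measure how firm a single result is. For most alternatives the share of all genes called in the same fit is not given. Such counts compare the fits and do not set the members against all genes. The single higher call after 2 antibody doses became 0 under median-of-ratios scaling, without the filter, without the trend and with all groups in 1 fit, and nuclear protein-coding scaling gave 1 lower nuclear call in place of 0. In the deletion the 19 lower nuclear calls became 29 with all groups in 1 fit, 0 with the run of identifiers as a covariate and 5 with a fold limit of 2, nuclear protein-coding scaling gave 2 higher calls, and 1 mitochondrial mRNA was called higher under median-of-ratios scaling, upper-quartile scaling and with all groups in 1 fit. For isotype control tumors against culture, the fit of all groups gave 2 higher and 7 lower nuclear calls and 1 lower mitochondrial call, nuclear protein-coding scaling 21 lower nuclear calls, and a fold limit of 2 gave 2 lower nuclear and 5 lower mitochondrial calls. For baseline tumors, higher and lower nuclear calls were 4 and 37 under upper-quartile scaling, 5 and 11 without the trend, 2 and 1 with all groups in 1 fit, 3 and 3 with a fold limit of 1.5, and 3 and 0 with a limit of 2, and 1 mitochondrial mRNA was lower with the copies added, an alternative chosen after seeing the data. Between isotype control tumors of 2 doses and 1 dose, the fit of all groups called 6 nuclear members higher. Every fit of all groups includes isotype control replicate 1 after 1 dose and was not run without it.

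Leaving out each replicate in turn, higher nuclear calls after 2 doses ranged from 0 to 3, with 3 without treated replicate 5 and 0 without treated replicates 1 to 4 or isotype control replicates 2 or 5, and lower ones from 0 to 2 (2 without isotype control replicate 4, 1 without treated replicate 5). In the deletion lower nuclear calls ranged from 15 to 26, higher ones from 0 to 1 (without PD-1cKO replicate 2) and lower mitochondrial ones from 0 to 2 (2 without PD-1cKO replicate 9, 1 without replicate 6). For isotype control tumors against culture the ranges were 2 to 5 higher (fewest without cultures 2 and 3) and 8 to 34 lower nuclear calls and 6 to 12 lower mitochondrial ones (6 without culture 1 or 3). For baseline tumors they were 4 to 10 higher, 9 to 30 lower (9 to 13 without one of the cultures) and 0 to 7 lower mitochondrial calls.

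Between isotype control tumors of 2 doses and 1 dose, the lowest members reversed. Ndufs1 (0.06) gave -0.22, -0.12 and -0.32 and Uqcrc2 (0.11) -0.17, -0.073 and -0.27 under median-of-ratios, upper-quartile and nuclear protein-coding scaling, and -0.22 and -0.12 under the last without replicate 1 of the 1-dose group. Leaving out replicates, Ndufs1 ranged from -0.075 to 0.12 and Ndufaf4 (-0.01) from -0.074 to 0.044.

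Replicate numbers did not pair the samples (correlations of same-numbered deviations from -0.21 to 0.16). With the number as a block, 0 nuclear members were called higher after 2 doses, 3 were higher and 3 lower with 2 mitochondrial mRNAs lower for isotype control tumors against culture, and 1 mitochondrial mRNA was lower for baseline tumors. Depth was known only as a relative estimate, so that low members such as Cox8b rest on few reads.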

Other observations

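Genes that act on mitochondrial RNA were counted between isotype control tumors after 2 doses and culture. Of 20 genes of mitochondrial transcription, replication and mRNA stability, 8 were called lower and none higher by limma, where 16.8% of all genes were called lower, among them Tfam (log2 fold change -0.71, adjusted p 0.00011) and Lrpprc (-0.85, adjusted p 7.08e-05). In baseline tumors 5 of 20 were lower, where 18.3% of all genes were. All 9 cycling markers were lower in the isotype control tumors and 6 of 9 in baseline tumors, whose summed level was 674.5 to 710.9 and 612.8 to 784.2 FPKM against 1024 to 1080 in culture. Their part in these values was not tested.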
